A study of Homo sapiens with 4 samples.

Results

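The genes described here hold the G1 checkpoint of the cell cycle: the retinoblastoma family (RB1, RBL1 and RBL2), the cyclin-dependent kinase (CDK) inhibitors CDKN1A, CDKN1B, CDKN2A and CDKN2C, cyclin D1 (CCND1), and MDM2, the ubiquitin ligase that restrains p53. Probes were taken by gene name with no threshold on their values, and the set of genes was chosen with earlier results of these data known. The array carried 15 probes for these 9 genes among 50599 non-control probes, and 12 of the 15, covering 8 genes, gave enough signal to be tested. Gene expression had been measured in GIST-T1 cells, a human line derived from a gastrointestinal stromal tumor (GIST). The cells were electroporated with 100 pmol of a miR-335 mimic, a synthetic RNA standing in for the mature microRNA, or with a commercial negative control RNA, and total RNA was taken 48 h later. The labels place 2 arrays in each group. All 4 arrays came from the same cell line, kit and RNA input (100 ng of total RNA), and no array of untransfected cells was analysed here. A further line in the description of both mimic samples names miR-34a, whereas their titles, the transfection field and the rest of the description name miR-335; the groups follow the latter. Nothing in the labels states that the arrays of a group came from separate cultures, so p-values measure the spread between these arrays, which may be technical.

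In G1, cyclin D1 with CDK4 or CDK6, and then cyclin E with CDK2, phosphorylates RB1 and its relatives and thereby releases E2F transcription factors, which switch on genes for DNA replication. The INK4 proteins (CDKN2A and CDKN2C) block the cyclin D kinases, and the CIP/KIP proteins p21 (CDKN1A) and p27 (CDKN1B) bind cyclin-CDK complexes more widely. p53 induces CDKN1A and MDM2, and MDM2 in turn marks p53 for destruction. In GIST, loss of CDKN2A, of RB1 or of p53 function is known from advanced tumors. RB1 is also among the genes described elsewhere as targets of miR-335.

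A microRNA recognizes transcripts mainly through its seed, bases 2 to 8. The labels name no arm of the miR-335 hairpin, so both mature arms are shown, with miR-34a-5p beside them because of the stray label line. The sequences are those of RefSeq (GRCh38.p14), written 5′ to 3′ with the seed in capitals. The miR-335 hairpin lies on the plus strand of chromosome 7 (5p arm at chr7:130496126-130496148, 3p arm at chr7:130496162-130496183) in an intron of MEST, and miR-34a-5p at chr1:9151735-9151756 on the minus strand.
hsa-miR-335-5p: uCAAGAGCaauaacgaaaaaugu
hsa-miR-335-3p: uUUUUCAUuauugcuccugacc
hsa-miR-34a-5p: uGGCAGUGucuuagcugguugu
The 3 seeds differ from one another. The 7 DNA letters that face the miR-335-5p seed (GCTCTTG) were in 0 of the 15 member probes, against 0.437% of all probes, and those facing the seeds of miR-335-3p (ATGAAAA, 1.22% of all probes) and miR-34a-5p (CACTGCC, 0.435%) were also in 0 of 15. This search read the 60 bases of each probe on the transcript strand only. The rest of each transcript was not analysed here, so the search says nothing about sites elsewhere in these genes.

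The labelled cell type was checked against its markers. All probes of KIT, ANO1, ETV1, PRKCQ and CD34 were well above background on all 4 arrays, with changes of -0.33 for KIT (limma adjusted p = 0.0512), -0.15 for ETV1, -0.10 for PRKCQ, -0.09 for CD34 and -0.07 for ANO1 at the brightest probe of each. None of these 5 passed the test. The groups did not overlap for 4 of them, all lower, where 32.5% of all tested probes lay apart as lower and 27.1% as higher. The dimmer KIT probes gave -0.06 and -0.14 (limma adjusted p = 0.674 and 0.161), and the dimmer ANO1 probe gave 0.47 (adjusted p = 0.0533). No probe of PTPRC (leukocytes), PECAM1 (endothelium) or CDH1 (epithelium) was well above background on any array. CDH5 was well above background on 2 of the 4 arrays, and DES, a muscle intermediate filament gene, on all 4. EPCAM, an epithelial gene, was dim but detected on all 4 arrays, with processed intensities of 42.6 and 53.9 after the mimic and of 122.9 and 60.4 in the controls (limma adjusted p = 0.287). Whether the marker differences bear on the results below was not tested. Between 40.3% and 41.9% of probes per array were well above background, and replicate arrays of either group typically differed by 0.06 (median size of the log2 difference over tested probes).

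RB1, which encodes the retinoblastoma protein, was the member that differed. Its single probe (A_23_P204850, chr13:49055845-49055904 in hg19, plus strand) is printed 10 times on each array. Normalized log2 signals, taken as the distance from each array's 75th percentile, were 2.67 and 2.70 after the mimic and 3.30 and 3.28 in the controls. Both mimic arrays thus lay below both control arrays. In processed intensity, before scaling between arrays, these were 1207 and 1187 against 1757 and 1759. The group means were 2.68 ± 0.02 and 3.29 ± 0.02 (SD, n = 2 each), a log2 change of -0.60 with a standard error of 0.04 and a 95% interval of -0.71 to -0.49. RB1 signal was 1.52-fold lower with the mimic, and limma gave an adjusted p of 0.0348 over 20328 tested probes. It was the 1 of 12 tested member probes called lower, where 1.15% of all tested probes were called lower, and 0 of 12 were called higher, where the background was 1.47%. Among all 20328 probes, the RB1 change ranked 281 from the lowest. In RNA from a whole culture, fewer expressing cells and less RNA per cell cannot be told apart. At an unadjusted p under 0.05, limma marked 3 of the 12 member probes, namely RB1, CDKN2C and CCND1, where 25.3% of all tested probes were marked.

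The single spots showed the same separation. The 20 RB1 spots on the mimic arrays ranged from 2.55 to 2.90, and the 20 on the control arrays from 3.15 to 3.41. The highest mimic spot was thus below the lowest control spot. Spots of an array share its RNA and are not replicates of the treatment, so this shows the precision of the measurement on each array.

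**Figure D1:**
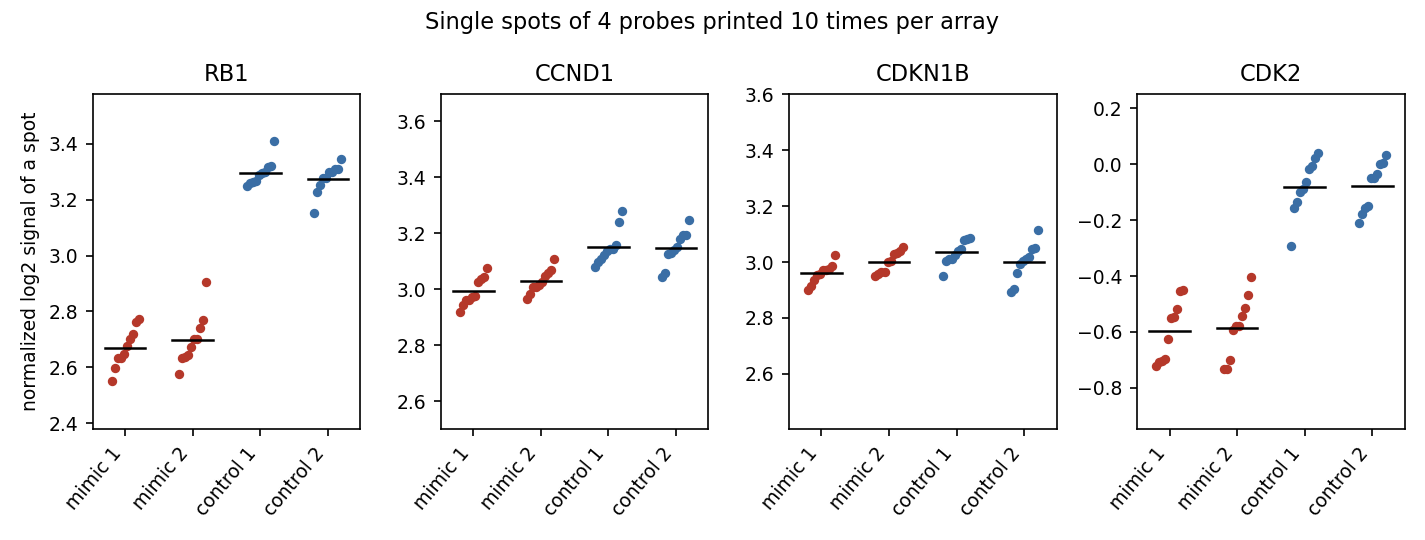
Normalized log2 signal of the single spots (points) of the RB1, CCND1, CDKN1B (A_24_P81841) and CDK2 probes, each printed 10 times on each of the 4 arrays, with the array mean as a line; red marks the miR-335 mimic and blue the negative control, and all panels span the same log2 range. Mimic and control spots of RB1 do not overlap (at most 2.90 against at least 3.15), nor do those of CDK2 (at most -0.40 against at least -0.29), whereas those of CCND1 and CDKN1B do.

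The RB1 call depended on which probes entered the fit and on how the spread was estimated, while the size of the change did not. The change stayed between -0.62 and -0.58 under every alternative other than scaling to spike-in RNAs, where it was -0.79 against a median of -0.20 over all tested probes. The adjusted p was 0.411 with no detection filter, 0.0957 when detection on at least 1 array sufficed, 0.125 with the replicate number as a block and 0.107 by the methods' t-test. It lay between 0.143 and 0.196 when any 1 of the 4 arrays was left out. Such a fit sets 1 array against 2. It takes a probe's own spread from the complete group, moderated by limma over all tested probes, and assumes that the lone array varies likewise. No conclusion is therefore drawn from the loss of the call there. In 7 of these 8 fits no probe of the whole array passed, with 3614 to 4696 probes at an unadjusted p under 0.05, and in the fit without mimic replicate 2 there were 8 calls. With 2 arrays against 2, an exact two-sided permutation test of a single probe cannot go below p = 0.333.

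**Figure D2:**
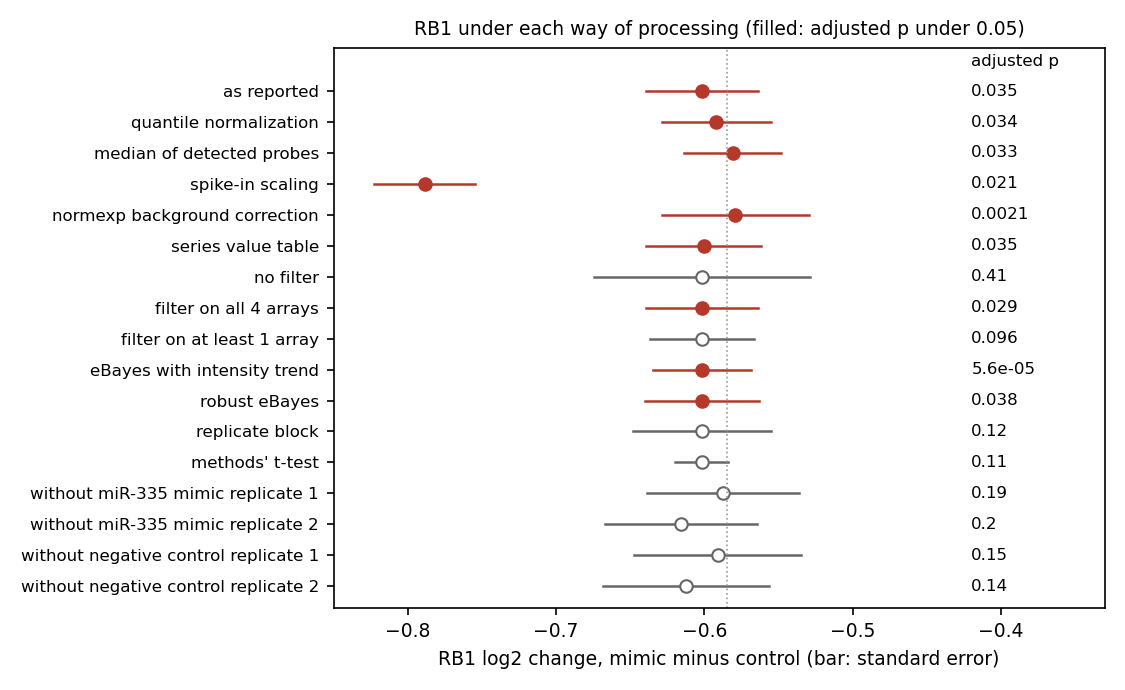
Log2 change of RB1 (mimic minus control, horizontal axis; bars are 1 standard error) under each way of processing, with its adjusted p at the right; filled red points have an adjusted p under 0.05 and the dotted line marks 1.5-fold. The point stays near -0.60 except with spike-in scaling, and the adjusted p passes 0.05 in 9 of the 17 settings.

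The relatives of RB1 did not pass the test. RBL1 encodes p107, a pocket protein that binds repressor E2Fs, and had a pair of probes on chromosome 20, minus strand, annotated to different transcripts. Both are shown since they gave different signal.
RBL1 probe A_23_P28733: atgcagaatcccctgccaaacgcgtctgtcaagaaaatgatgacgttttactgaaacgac
RBL1 probe A_24_P276102: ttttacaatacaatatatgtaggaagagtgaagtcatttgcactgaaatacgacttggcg
The first (chr20:35627197-35627256, hg19) was well above background on all 4 arrays, with normalized log2 signals of -1.15 and -1.03 after the mimic and -1.21 and -1.28 in the controls. Both mimic arrays were thus above both controls, by a log2 change of 0.16 ± 0.06 (SE) with an adjusted p of 0.241 (limma). The second (chr20:35635829-35635888) was not well above background on any array, so no fold change is given for it. RBL2, which encodes p130, the pocket protein of resting cells, had 1 probe on chromosome 16 (chr16:53524846-53524905). Its normalized log2 signals were 1.41 and 1.55 after the mimic and 1.55 and 1.45 in the controls. The groups overlapped, and the 95% interval of the change, -0.23 to 0.20, allows at most a 1.18-fold difference. The intervals of RBL1 (-0.03 to 0.34) and RBL2 did not reach that of RB1, but the difference between the 3 genes was not itself tested.

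CDKN1A, the p53-induced inhibitor p21, had a single probe on the array (A_24_P89457, chr6:36652178-36652237, plus strand), shown because its signal was at background.
CDKN1A probe A_24_P89457: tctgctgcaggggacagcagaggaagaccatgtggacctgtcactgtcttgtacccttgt
Its processed intensities were 5.91 and 6.30 after the mimic and 6.25 and 5.24 in the controls. None of the 4 arrays had this probe well above background, and its normalized values, from -5.12 to -4.84, lay under the lowest detected probe of each array (between -3.19 and -2.93). No fold change or test is therefore given, and a low CDKN1A level cannot be told apart from a probe that hybridizes poorly.

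CDKN1B, which encodes p27, was measured by 2 detected probes on chromosome 12, plus strand. The probe printed 10 times (A_24_P81841, chr12:12874940-12874999) gave normalized log2 signals of 2.959 and 2.999 after the mimic and 3.035 and 2.999 in the controls. The mimic arrays were the lower ones, by a gap smaller than the difference between replicates, and the change was -0.04 ± 0.04 (SE; limma adjusted p = 0.599). The other probe (A_23_P204696, chr12:12871119-12871178) gave 1.97 and 2.03 against 1.98 and 1.92, a change of 0.05 ± 0.05 (SE; limma adjusted p = 0.552). The probes thus differed in sign, and neither interval held a difference above 1.14-fold.

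The INK4 genes were bright. CDKN2A encodes both p16 and, in another reading frame, ARF, which holds MDM2 in check, and both of its probes lie on chromosome 9, minus strand. The array annotation names several CDKN2A transcripts for them, so the p16 and ARF transcripts could not be told apart. One of the probes is shown for that reason.
CDKN2A probe A_33_P3411628: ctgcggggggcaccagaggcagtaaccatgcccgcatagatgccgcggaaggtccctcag
This probe (chr9:21970901-21970960) gave normalized log2 signals of 3.76 and 3.79 after the mimic and 3.81 and 3.74 in the controls. The mimic values lay between the control values, and the 95% interval, -0.14 to 0.13, allows at most a 1.10-fold difference. The other CDKN2A probe (A_23_P43490, chr9:21968039-21968098) gave 5.98 and 6.03 against 6.06 and 6.01, a change of -0.03 ± 0.05 (SE). Its interval held nothing above 1.12-fold under that scaling. Scaled to spike-in RNAs, the probe shown changed by -0.19 and this one by -0.22, beside a median of -0.20 over all tested probes. For CDKN2C, which encodes p18, the probe A_33_P3292540 (chr1:51439963-51440022, plus strand) gave 3.75 and 3.76 after the mimic and 3.66 and 3.61 in the controls. Both mimic arrays were above both controls, by 0.12 ± 0.04 (SE) on the log2 scale, a 1.09-fold difference. That change did not pass limma's adjusted threshold (unadjusted p = 0.0489, adjusted p = 0.196).

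CCND1, the D-type cyclin that starts RB1 phosphorylation, has a probe printed 10 times per array (A_23_P202837, chr11:69468233-69468292, plus strand). Its normalized log2 signals were 2.99 and 3.03 after the mimic and 3.15 and 3.15 in the controls. Both mimic arrays lay below both controls, while the single spots overlapped (2.92 to 3.11 against 3.04 to 3.28). The change was -0.14 ± 0.04 (SE), 1.10-fold lower, with a limma adjusted p of 0.149.

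MDM2 had 4 probes on chromosome 12, plus strand, and was the noisiest of the measured genes. A_33_P3361707 (chr12:69233570-69233629) gave normalized log2 signals of -0.52 and -0.79 after the mimic and -0.46 and -0.65 in the controls. A_24_P925664 (chr12:69238891-69238950) gave -1.07 and -1.30 against -1.22 and -0.90, and A_19_P00810040 (chr12:69236905-69236964) gave -1.76 and -2.44 against -1.95 and -1.82. In all 3 the groups overlapped and mimic replicate 2 was the lowest array. The changes were -0.10, -0.13 and -0.21, with limma adjusted p between 0.621 and 0.649, and without mimic replicate 2 the first and the last of these were 0.03 and 0.13. The intervals reached from -0.97 to 0.55, so these probes left room for an MDM2 difference of up to 1.96-fold. The remaining probe (A_23_P502750, chr12:69233822-69233881) was well above background on 1 array only, with 3 of 17 mimic spots and 7 of 20 control spots carrying that flag, and was not tested.

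**Figure D3:**
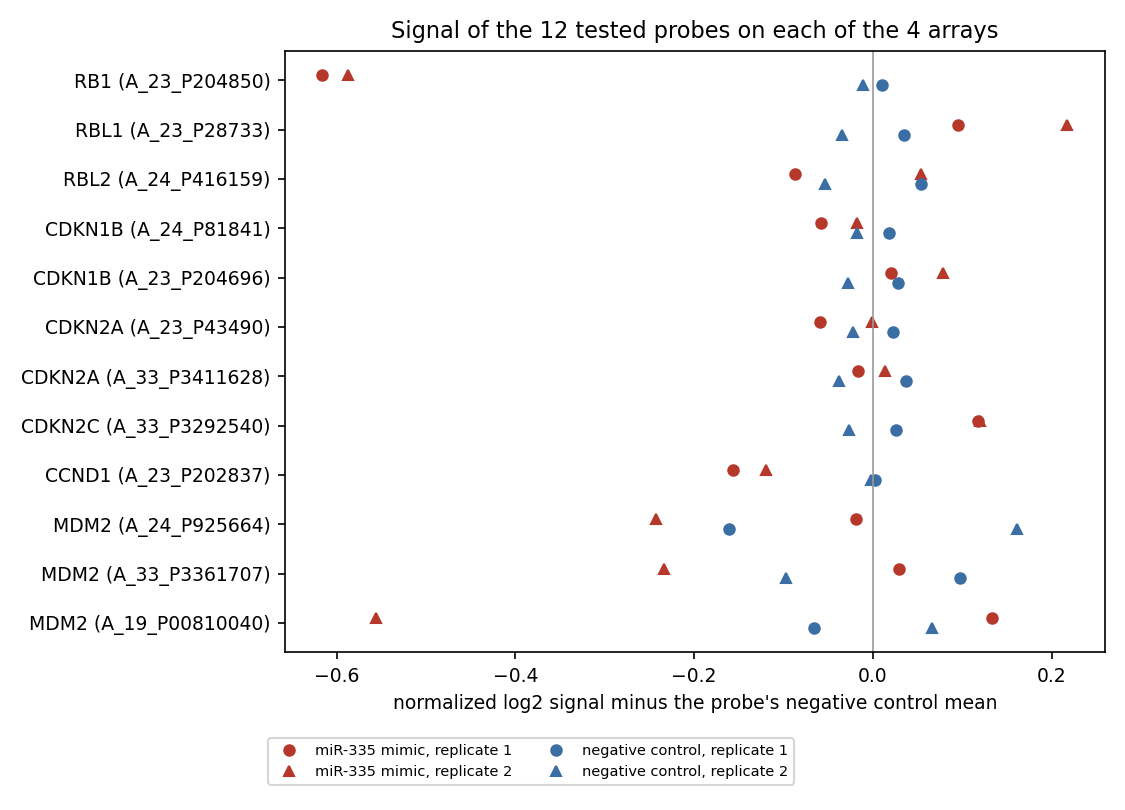
Normalized log2 signal of the 12 tested probes on each of the 4 arrays, plotted as the difference from the probe's own negative control mean (horizontal axis), so that levels of different probes are not compared; red is the mimic, blue the control, and the shape gives the replicate. RB1 alone has both mimic arrays beyond 0.5 below the control mean, and the MDM2 probes have the widest scatter.

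Over the whole set, the groups did not overlap for 5 of the 12 tested probes: RB1, CCND1 and CDKN1B (A_24_P81841) were lower, and RBL1 and CDKN2C were higher. Such separation was common on these arrays, where 32.5% of all tested probes lay apart as lower and 27.1% as higher. The median change of the 12 probes was -0.03, beside -0.01 for all tested probes. The fold limit of 1.5, which the study used and which carries no test here, was passed by RB1 alone: 1 of 12 was lower, where 1.47% of all tested probes were, and 0 of 12 were higher, where 2.43% were. RB1 passed it narrowly, at 1.517-fold. It was 1.496-fold lower when scaled to the median of detected probes and 1.494-fold lower with normexp background correction. The other 11 probes changed by between -0.21 and 0.16, with limma adjusted p between 0.149 and 0.987. For 10 of the 12 probes the 95% interval stayed inside 1.5-fold in both directions, and for 7 it stayed inside 1.2-fold. The exceptions at 1.5-fold were RB1 and MDM2 (A_19_P00810040).

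**Figure D4:**
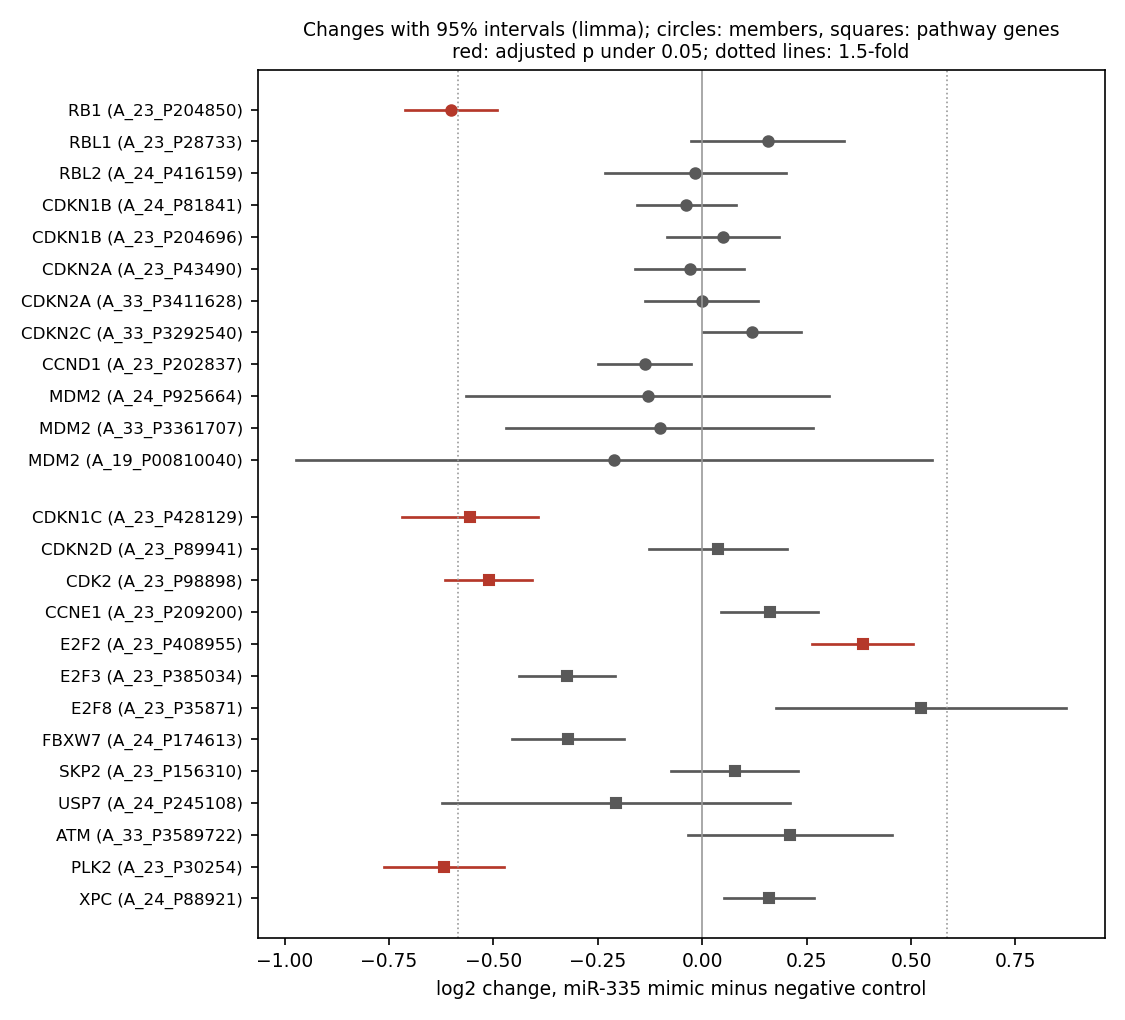
Log2 change (mimic minus control) with its 95% interval from limma for the 12 tested probes (circles) and for 13 genes of the pathway lists (squares); red marks an adjusted p under 0.05 and dotted lines mark 1.5-fold. RB1, CDKN1C, CDK2 and PLK2 are lower and E2F2 is higher, while the CDKN1B and CDKN2A intervals are narrow around 0.

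Around these genes, 6 lists of pathway genes were read with 1 probe per gene, the brightest tested. Of 58 listed genes, 56 could be tested, 3 were called lower and 1 higher, and their median change was -0.04. The background shares for such calls are the 1.15% and 1.47% given above. They are over all tested probes, dimmer ones of the same gene included, and so are not a like-for-like background for these lists. All 4 calls were lost in the same fits in which that of RB1 was lost, and E2F2 also with robust variance estimation.

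Of the other CDK inhibitors, 2 of 3 were tested and 1 was called lower. CDKN1C, which encodes the CIP/KIP inhibitor p57, gave normalized log2 signals of 3.77 and 3.84 after the mimic and 4.31 and 4.41 in the controls. Both mimic arrays were lower, by a change of -0.56 ± 0.06 (SE; limma adjusted p = 0.0460), or 1.47-fold. CDKN2D, the INK4 inhibitor p19, differed by 0.04 (adjusted p = 0.714), and CDKN2B was not detected well enough to be tested.

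Of the 8 G1 cyclins and kinases, 7 were tested, 3 with a negative and 4 with a positive change, and 1 was called. CDK2, the partner of cyclin E and cyclin A, has a probe printed 10 times and gave -0.60 and -0.58 after the mimic and -0.08 and -0.08 in the controls. The 20 mimic spots (-0.73 to -0.40) and the 20 control spots (-0.29 to 0.04) did not overlap. The change was -0.51 ± 0.04 (SE; limma adjusted p = 0.0351), or 1.43-fold lower. With normexp background correction the CDK2 change was smaller, at -0.34. CCNE1, cyclin E1, had the largest positive change of the list, 0.16 (adjusted p = 0.132), and CDK6 could not be tested.

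The E2F and DREAM list covers E2F transcription factors and their TFDP partners, and subunits of the repressor complex built on p107 or p130. RB family proteins hold only some of these E2Fs. All 15 genes were tested, with 8 negative and 7 positive changes and a median of -0.0034. E2F2, an activator E2F, was called higher: normalized log2 signals were 3.88 and 3.92 after the mimic and 3.53 and 3.49 in the controls, a change of 0.38 ± 0.04 (SE; limma adjusted p = 0.0491). E2F8, an atypical repressor E2F, had a larger change of 0.52 with more scatter (-0.58 and -0.88 against -1.21 and -1.29) and did not pass (adjusted p = 0.120). E2F3, another activator, had the lowest change, -0.32 (adjusted p = 0.0580), and its dimmer probe gave -0.45 (adjusted p = 0.141). Activator E2Fs thus gave changes of both signs.

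None of the 5 genes of the list named p27 turnover was called by limma. That list also holds FBXW7, the ubiquitin ligase subunit that targets cyclin E. FBXW7 had the lowest change, with 1.43 and 1.49 after the mimic and 1.81 and 1.75 in the controls (-0.32, limma adjusted p = 0.0705). SKP2, the subunit that targets p27, had the highest, 0.08 (adjusted p = 0.423). None of the 5 p53 regulators was called either. The lowest change was -0.21 for USP7, a deubiquitinase of MDM2 and p53 (limma adjusted p = 0.435). Its probe was dim, with processed intensities from 28.2 to 37.8, and its 95% interval reached 1.54-fold. The highest was 0.21 for ATM, the DNA damage kinase (limma adjusted p = 0.241). The other 2 ATM probes were not tested.

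All 22 listed p53 target genes were tested, with 15 negative and 7 positive changes and a median of -0.08, beside -0.01 for all tested probes. One gene, PLK2, was called. PLK2, a polo-like kinase, gave normalized log2 signals of -0.05 and 0.03 after the mimic and 0.58 and 0.64 in the controls. Both mimic arrays were lower, by -0.62 ± 0.05 (SE; limma adjusted p = 0.0370), or 1.54-fold. With normexp background correction the PLK2 change was smaller, at -0.45. The largest positive change was that of XPC, a DNA repair gene, at 0.16 (adjusted p = 0.122). The groups did not overlap for 17 of the 22 genes, 12 lower and 5 higher, a share to be read against the 32.5% and 27.1% of all tested probes that did so.

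**Figure D5:**
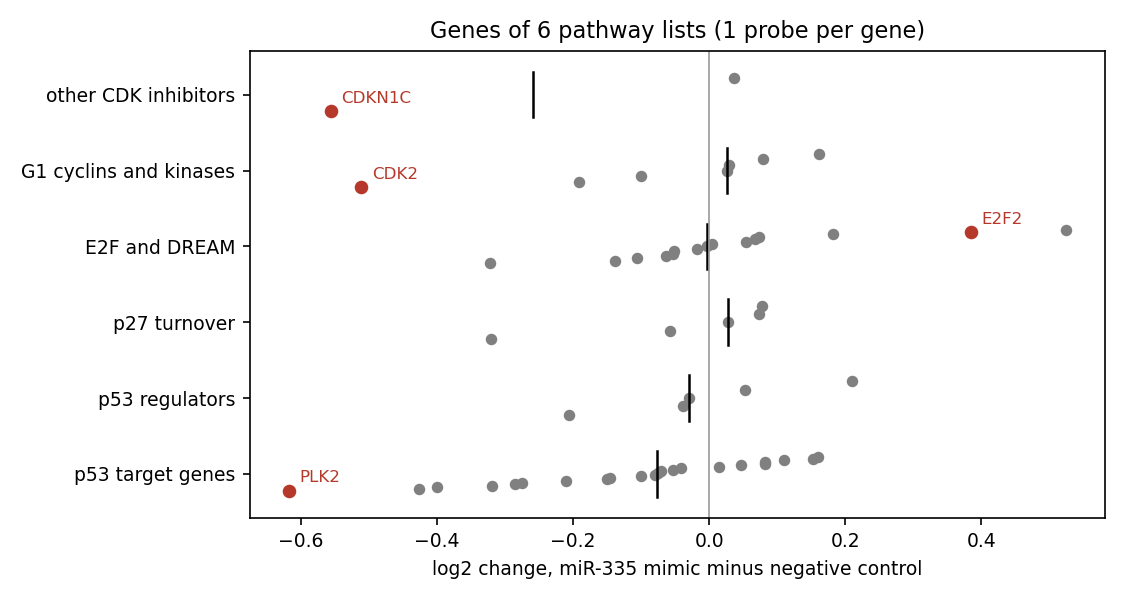
Log2 change (mimic minus control, horizontal axis) of each tested gene of the 6 pathway lists, 1 point per gene, with the list median as a line; red marks an adjusted p under 0.05. The 4 called genes lie in different lists, and most other genes lie within 0.4 of 0.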

How the data were processed

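Per the labels, RNA from GIST-T1 cells was labeled with 1 dye and hybridized to Agilent human arrays, 4 in all. The files the authors deposited hold spot intensity values and flags from Feature Extraction 10.7.3.1 (hg19 probe positions, per the file headers); the processed intensity was background-subtracted by that software and not normalized between arrays. A series table the authors deposited holds the same intensity values, rounded. Outlier spots (356 to 395 per array) were removed, replicate spots averaged as log2, and the 75th percentile of each array subtracted; no spot was saturated. A probe was well above background where at least 0.5 of its spots carried that flag, and was tested if this held on both arrays of at least 1 group. Groups were compared with limma 3.58.1 (R 4.3.3; lmFit, eBayes), adjusted by Benjamini-Hochberg over 20328 probes, at 0.05; the script was tested on simulated data. Pathway lists were read with the brightest probe per gene, naming each called gene and the lowest and highest change. Members and lists were chosen with earlier results of these data known. Nothing in the labels pairs the arrays by replicate number. Replicate differences of the mimic and control arrays had a correlation of 0.03, which does not settle whether a culture or day was shared. All 9 symbols matched RefSeq. The number of arrays limits the precision.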

Additional observations from a re-analysis of the deposited data

Results flagged for a closer look

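The external spike-in probes, which serve above only for an alternative scaling, were higher with the mimic. For the 7 of 10 that were well above background, the median log2 change (mimic minus control) was 0.187, against -0.01 for all tested probes.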

How the results depend on the processing

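The number of member probes past the adjusted threshold, 1 as reported, was 5 with spike-in scaling, where 47.2% of all tested probes were called (9076 lower, 516 higher), and 3 with an intensity trend (15.2% of all); it was 0 with no filter, with detection on at least 1 array, with the replicate block, by the methods' t-test, and 0 to 0 when each array was left out in turn. The number over 1.5-fold, 1 as reported, was 0 with the median of detected probes, with normexp and at a 2-fold limit. The number of pathway genes called, 4 as reported, was 33 with spike-in scaling and 16 with the trend, against those same shares, 9 with normexp (7.62% of all called), and 0 with no filter, with detection on at least 1 array, with the replicate block and by the methods' t-test (0 to 0 with an array left out). Spike-in scaling moved the median of all tested probes to -0.20, so its changes are relative to that. The member probes it added to the calls, all lower, were CDKN1B A_24_P81841 (-0.22), CDKN2A A_23_P43490 (-0.22), CDKN2A A_33_P3411628 (-0.19) and CCND1 (-0.33). That scaling turned RBL1 (-0.0302), CDKN1B A_23_P204696 (-0.14), CDKN2C (-0.0686), CDKN2D (-0.15), CCNE1 (-0.0254), SKP2 (-0.11) and XPC (-0.0273). Quantile normalization turned CDKN2A A_33_P3411628 (0.00713), the median of detected probes RBL2 (0.00430) and that CDKN2A probe (0.0193), and normexp CDKN1B A_23_P204696 (-0.00762) and CDKN2D (-0.0198). With an array left out, RBL2 ranged from -0.0867 to 0.0539, CDKN2A A_33_P3411628 from -0.0389 to 0.0361, CDKN2D from -0.0161 to 0.0904, and MDM2 from -0.29 to 0.0299 (A_24_P925664), -0.23 to 0.0292 (A_33_P3361707) and -0.56 to 0.13 (A_19_P00810040). Of 400 single-probe values over 25 probes, 323 kept their direction and side of the threshold. Where only the filter or the test was changed, the direction could not turn, so this count does not measure stability. A slide block was not run, since all arrays share 1 slide. The causes were not tested.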
